A study of Homo sapiens with 6 samples.

Results

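STC1, STC2, GDF15 and FGF21 encode secreted hormones that cells release under stress. They were found by gene name in the deposited count table, 4 genes of the 57396 listed. All 4 were among the 15312 genes that passed the filter on low counts, FGF21 only through its control libraries. The genes were chosen because their difference between treated and control libraries was already known, so that difference is described below and not tested. PC-3 cells, an established line from a metastasis of a prostate carcinoma, had been given 160 micromolar S-adenosylmethionine (SAM), the methyl donor of the cell, or PBS as vehicle, for 5 days. Each group held 3 libraries of total RNA, all from the same line and with no other agent. The libraries held 9379258 to 28995160 gene counts, and the labels do not say whether replicates came from separate cultures, so the spread may be technical.

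Stanniocalcins are secreted glycoproteins first known from calcium balance in fish. In mammals they act mostly on neighbouring cells, and both bind and block the protease PAPP-A, which frees insulin-like growth factors from their binding proteins. GDF15 is a distant member of the TGF-beta family that signals through GFRAL and RET in the hindbrain and lowers appetite, and many tumours release it. FGF21 is an endocrine fibroblast growth factor that needs the co-receptor beta-Klotho (KLB) beside an FGF receptor. ATF4, which drives the gene program of the integrated stress response, is known to act on STC2, GDF15 and FGF21, while hypoxia is known to raise both stanniocalcins.

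The promoters are shown because STC2, GDF15 and FGF21 were lower with SAM together while differing in sequence, and because the study measured methylation upstream of STC2. The stretch assayed there is not marked, and its place relative to the sequence printed below was not tested. RefSeq promoters (GRCh38.p14, 250 bases before to 50 bases from the start site) were matched for 3 of the 4 genes. That of STC2 lies on the minus strand at chr5:173328365-173328664, that of GDF15 on the plus strand at chr19:18385908-18386207 and that of FGF21 on the plus strand at chr19:48755274-48755573. Each is written 5′ to 3′, and capitals mark matches on either strand to 5 motifs. TGATGNAA is the core that ATF and C/EBP factors share. The CCAAT box and the TATA box (TATAAA) are common promoter elements. The hypoxia element has the core ACGTG, or with another first base GCGTG. The only overlap is of 1 base, between the first and the next GCGTG match of STC2.
STC2: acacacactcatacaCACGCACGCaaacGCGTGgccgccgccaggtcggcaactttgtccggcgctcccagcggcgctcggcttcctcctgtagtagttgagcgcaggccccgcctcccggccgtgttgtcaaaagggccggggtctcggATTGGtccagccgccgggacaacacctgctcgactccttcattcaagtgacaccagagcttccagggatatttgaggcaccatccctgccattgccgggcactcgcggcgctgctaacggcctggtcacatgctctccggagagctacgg
GDF15: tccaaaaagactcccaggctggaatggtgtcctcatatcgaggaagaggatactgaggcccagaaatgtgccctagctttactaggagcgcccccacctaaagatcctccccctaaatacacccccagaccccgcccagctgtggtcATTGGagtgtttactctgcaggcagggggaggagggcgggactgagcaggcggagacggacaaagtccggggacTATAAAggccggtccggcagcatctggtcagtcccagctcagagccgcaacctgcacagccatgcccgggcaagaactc
FGF21: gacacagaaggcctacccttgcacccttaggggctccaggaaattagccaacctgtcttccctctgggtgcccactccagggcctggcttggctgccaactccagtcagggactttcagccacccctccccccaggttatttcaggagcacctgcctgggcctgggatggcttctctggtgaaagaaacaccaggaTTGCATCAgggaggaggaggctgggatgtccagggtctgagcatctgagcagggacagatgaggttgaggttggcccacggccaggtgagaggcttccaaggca

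The FGF21 promoter held the ATF and C/EBP core as TTGCATCA, with its first base at -54 from the start site. That core was present in 3.67% of 27305 promoters of the same length. The STC2 and GDF15 windows held no match to it. Both held an inverted CCAAT box, at -100 in STC2 and at -103 in GDF15, which 35.7% of promoters held in either direction. GDF15 had a TATA box at -29 (present in 12% of promoters). STC2 had 3 matches to GCGTG, at -235, -231 and -222 (36.3% of promoters held at least 1), and ACGTG, found in 21.6% of promoters, was in none of the windows. CpG dinucleotides numbered 28 in STC2, 11 in GDF15 and 1 in FGF21, against a median of 14 over all promoters. These matches describe the letters only.

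Control 1 and SAM 2 stood apart from the other libraries, with 1.18% and 1.56% of their counts on the noncoding gene CTD-2328D6.1 against 0.0324 to 0.0636% elsewhere. SAM 3 stood apart by GC content, with a slope of 0.16 in log2 CPM (counts relative to a library size scaled by TMM) per 10 percentage points, against -0.06 to -0.01 in the others. All 6 genes listed as markers of the line, such as KRT8, KRT18 and CD44, were present, at a summed level of 5300 to 7010 CPM. Of the androgen-dependent prostate genes KLK3 and KLK2 had no count in any library. Of 5 matched markers of leukocytes, fibroblasts and hepatocytes the summed level was 17.3 to 19.6 CPM, nearly all of it COL1A1.

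STC2 (ENSG00000113739, chromosome 5, positions 173314713 to 173329503, GRCh38) was by far the more abundant stanniocalcin. It stood at 568, 525 and 556 CPM in control 1 to 3 and at 231, 328 and 325 CPM in SAM 1 to 3. Every SAM library lay below every control library, and SAM 1 was the lowest. The means were 550 ± 22.2 CPM in controls and 295 ± 55.1 CPM with SAM (SD, n = 3). The log2 fold change was -0.90 (SE 0.13). In controls its level exceeded that of 98.6% of tested genes. These are bulk samples, in which fewer expressing cells and less RNA per cell cannot be told apart.

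STC1 (ENSG00000159167, chromosome 8, positions 23841915 to 23854807) went the other way. Controls 1 to 3 held 17.5, 20.2 and 18.2 CPM, and SAM 1 to 3 held 35.5, 31.8 and 23.9 CPM. The groups did not overlap, although SAM 3 lay only just above control 2. The means were 18.6 ± 1.41 and 30.4 ± 5.92 CPM (SD, n = 3), which gave a fitted log2 difference of 0.70 (SE 0.15).

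The stanniocalcins stood in another proportion after SAM. A ratio of counts taken inside 1 library does not depend on scaling between libraries. STC2 counts were 32.5, 26.0 and 30.5 times STC1 counts in the controls, and 6.51, 10.3 and 13.6 times in the SAM libraries. The mean ratio was 29.7 ± 3.33 in controls and 10.1 ± 3.55 with SAM (SD, n = 3), with no overlap. STC2 remained the more abundant in every library, and the summed level of both was 568 ± 20.7 CPM in controls and 325 ± 50.8 CPM with SAM.

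**Figure D1:**
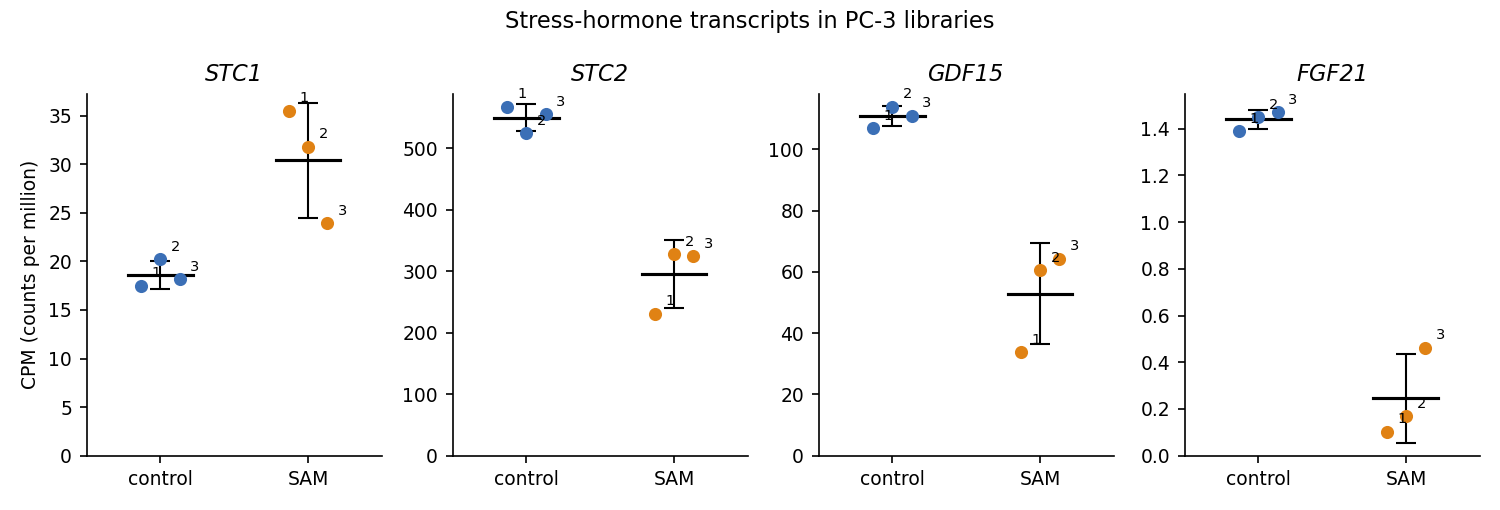
CPM (vertical axes, linear from 0) of the 4 genes in each control (blue) and SAM (orange) library, numbered by replicate, with the group mean and SD in black. STC1 averages 18.6 CPM in controls and 30.4 CPM with SAM, and in the other genes every SAM library lies below every control library.

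GDF15 (ENSG00000130513, chromosome 19, positions 18374731 to 18389176) was lower with SAM. The controls stood at 107, 114 and 111 CPM and the SAM libraries, in order, at 33.9, 60.6 and 64.3 CPM. SAM 1 was again the lowest library, and the 3 controls differed little. The means were 111 ± 3.23 and 52.9 ± 16.6 CPM (SD, n = 3), which gave a fitted log2 difference of -1.07 (SE 0.20). The ratio of STC2 to GDF15 counts was 5.30, 4.62 and 5.01 in the controls and 6.82, 5.41 and 5.06 in the SAM libraries. These ranges overlapped, and SAM 1 had the highest ratio. The microRNA gene MIR3189 lies inside GDF15 and had 7 counts over all libraries.

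**Figure D2:**
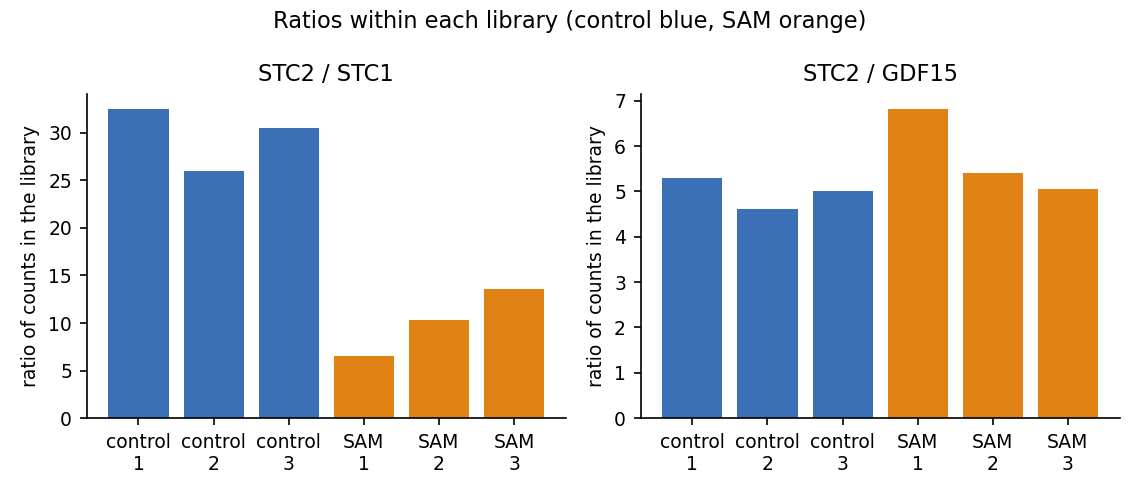
Ratio of STC2 to STC1 counts (left) and of STC2 to GDF15 counts (right) within each library (vertical axes, from 0), colored blue for controls and orange for SAM. The left ratio is 26.0 to 32.5 in controls and 6.51 to 13.6 with SAM, while the right one is 4.62 to 5.30 and 5.06 to 6.82.

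FGF21 (ENSG00000105550, chromosome 19, positions 48755559 to 48758330) was scarce in every library. The controls had 13, 32 and 30 counts and the SAM libraries 3, 2 and 7. In CPM this is 1.39, 1.45 and 1.47 against 0.103, 0.169 and 0.462, where 3 counts correspond to 0.103 to 0.322 CPM depending on the library. The control libraries were nearly equal, and each SAM library was below all of them although SAM 1 was the deepest. Counting error alone gave 95% intervals of 0.742 to 2.38, 0.994 to 2.05 and 0.991 to 2.1 CPM in control 1 to 3. The small spread of the controls is therefore no measure of precision. The means were 1.44 ± 0.0393 and 0.245 ± 0.191 CPM (SD, n = 3), with a coefficient of variation of 78.0% with SAM. Pooled, 12 counts with SAM stood against 75 in controls, a ratio of 0.148 after scaling (exact 95% interval 0.0731 to 0.274, for counting error only). Set against the pooled controls by itself, SAM 1 gave a ratio of 0.0713 (0.0144 to 0.216), SAM 2 of 0.117 (0.0139 to 0.437) and SAM 3 of 0.319 (0.124 to 0.690). The fitted log2 fold change of -2.69 (SE 0.42) was lower than that of any other tested gene. FGF21 was chosen on this contrast and passed the filter only through its controls, so nothing is read from that rank. At so few counts the value depends on the prior count of the fit and on single libraries. FUT1, the nearest gene, 133 bases away on the other strand, stood at a mean of 18.9 ± 1.33 CPM in controls and 13.7 ± 2.16 CPM with SAM (edgeR adjusted p = 0.0566). Its part in the FGF21 counts was not tested.

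Levels of different genes were compared per kilobase of the canonical GENCODE transcript. In controls STC2 had 129 CPM per kilobase, GDF15 92.1, STC1 4.82 and FGF21 1.07. With SAM these levels were 69.3, 44.1, 7.86 and 0.182. The order was kept in both groups, and no library of a gene overlapped those of its neighbour in the order, although GDF15 in SAM 3 (53.6) came close to STC2 in SAM 1 (54.3). The order of STC2 and GDF15 rests on the transcript chosen. The deposited table gives GDF15 a length of 562 bases where the canonical transcript has 1200, and with deposited lengths GDF15 had 197 CPM per kilobase in controls and STC2 103.

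All 4 genes were past the threshold of edgeR's quasi-likelihood test (Benjamini-Hochberg adjusted p under 0.05) fitted over the whole table, where 10.4% of tested genes were, 5.19% higher and 5.24% lower with SAM. Their groups did not overlap, as in 36.7% of tested genes. The genes were picked on this contrast, so nothing is read from these counts. The number past the threshold was 2, 2 and 1 when control 1, 2 or 3 was dropped (as were 1.61%, 1.45% and 0.909% of tested genes) and 2, 4 and 4 when SAM 1, 2 or 3 was (1.40%, 20.3% and 15.7%). STC2 was past it each time. Without both control 1 and SAM 2, 3 genes were (and 6.03% of tested genes), with STC1 outside.

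SAM 1 was the library farthest from the controls in all 4 genes. Without it the log2 fold change was 0.57 for STC1, -0.76 for STC2, -0.83 for GDF15 and -2.10 for FGF21. SAM 3, the library with the GC slope, was the nearest to the controls for STC1 and FGF21, whose transcripts hold 43.7% and 56.5% GC, and for GDF15 (62.9%). Without SAM 3 every difference was larger, at 0.85, -0.97, -1.24 and -3.48 in the same order. Without both control 1 and SAM 2 they were 0.64, -0.95, -1.20 and -2.62.

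**Figure D3:**
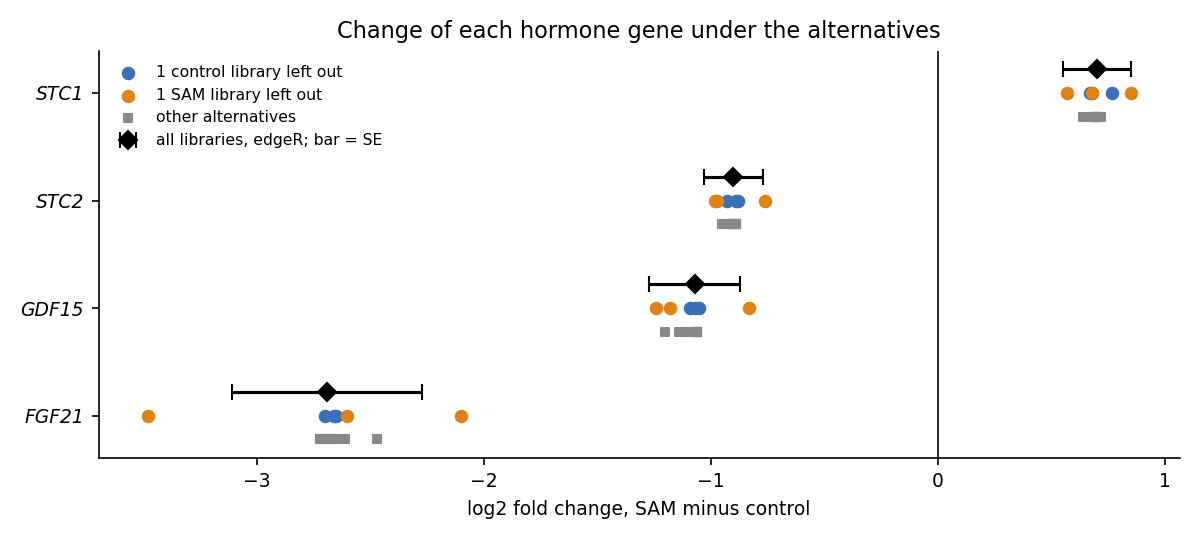
Log2 fold change of SAM minus control (horizontal axis) for each gene, with the value from all libraries and its SE in black, values with 1 library left out in blue (control) or orange (SAM), and the other alternatives in grey. STC1 stays above 0 at 0.57 to 0.85 and the other genes below it, with FGF21 spread from -3.48 to -2.10. The groups of each gene did not overlap, so the side of 0 was all but fixed in advance.

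The libraries of a group also varied together in these genes. After subtraction of the group means, the log2 CPM deviation of SAM 1 was -0.33 for STC2, -0.59 for GDF15, -0.60 for FGF21 and 0.24 for STC1. Over the 6 libraries these deviations gave r = 0.96 between STC2 and GDF15, and r = -0.71 between STC2 and STC1. Such values describe 6 points that share libraries and depth and rest mainly on the SAM group.

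Among 11241 genes whose log2 CPM averaged 2 or more, 315 followed STC2 over the 6 libraries with r of at least 0.95, which also carries the treatment difference. The nearest were TOM1L2, ITGA3, PLXNB2, GPT2 and STAT2 (r = 0.997 to 0.999). ITGA3, an integrin chain, stood at 1190 CPM without and 797 CPM with SAM. For the deviations alone they were GARS, SESN2, ZFYVE1, SORBS2 and SLC45A4 (r = 0.995 to 0.998). GARS encodes glycyl-tRNA synthetase and SESN2 a sestrin that restrains mTORC1. The genes nearest to GDF15 in level were LAMB2, NUPR1, ITGB2, BTN3A1 and ASAP3 (r = 0.996 to 0.997), and in deviation ABCC3, TRAPPC9, FAM122C, PCDH1 and RNF10 (r = 0.993 to 0.994). NUPR1 is a small stress-induced nuclear protein, at 18.9 CPM without and 8.92 CPM with SAM.

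STC1 was followed in level by AGPAT5, CDH11, MORF4L1P1, SPG20 and UAP1 (r = 0.989 to 0.995), of which the cadherin CDH11 stood at 5.04 CPM without and 10.9 CPM with SAM. In deviation its nearest genes were SIRT1, GLI2, PDE1C, SLC16A9 and FAM60A (r = 0.993 to 0.998). FGF21 was followed in level by PRR3, SPEG, CEACAM5, RAB15 and PRR5L (r = 0.997 to 0.999), and in deviation by DAP, GNB2L1, JAK3, SNAP47 and HMGA1 (r = 0.998 to 0.999). The last values carry the counting noise of FGF21. In deviation the leading gene left the 5 nearest without at least 3 of the 6 libraries for each of the 4 genes. In level LAMB2 left the 5 nearest to GDF15 without 4 of the 6 libraries, AGPAT5 those to STC1 without 2 and TOM1L2 those to STC2 without 1, while PRR3 stayed among those to FGF21 throughout.

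Receptors and partners of the hormones were mostly scarce. Of 16 genes listed, 6 were tested, 1 rose, 1 fell and 4 did not pass. Over all tested genes 5.19% were called higher and 5.24% lower. GFRAL, the receptor of GDF15, and KL had no count in any library, RET had 14 counts in all and KLB 18. FGFR1, an FGF receptor, rose from 20.0 ± 0.973 to 30.5 ± 3.09 CPM (edgeR adjusted p = 0.0101), a call lost without control 2 or 3 or SAM 1 (up to 0.0829). Calls over the whole table fell as well, from 1598 to 255, 222 and 139 without control 1, 2 or 3 and 215 without SAM 1. A call lost in those settings, here or below, is therefore not particular to the gene named. FGFR4, another FGF receptor, averaged 34.2 and 36.4 CPM (adjusted p = 0.567). Of the proteases that stanniocalcins block, PAPPA had 20 counts in all and PAPPA2 42. The PAPP-A substrate IGFBP4, which binds insulin-like growth factors, averaged 166 and 190 CPM (adjusted p = 0.212). IGFBP5, a further substrate, fell from 26.8 ± 1.56 to 6.78 ± 1.40 CPM (SD, n = 3, edgeR adjusted p = 0.000613), and stayed called without each library. FURIN, a convertase that processes precursors of the TGF-beta family, averaged 192 and 165 CPM (adjusted p = 0.159).

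Among 27 tested stress sensors and transcription factors, 6 fell, 1 rose and 20 did not pass, where 5.24% of all tested genes fell and 5.19% rose. The list had a median log2 fold change of -0.21 against -0.01 over all tested genes. ATF4 mRNA stood at a mean of 380 ± 20.7 CPM in controls and 292 ± 47.0 CPM with SAM (SD, n = 3), which missed the threshold (edgeR adjusted p = 0.0687). DDIT3, its partner CHOP, averaged 27.7 and 25.2 CPM (adjusted p = 0.519). NUPR1, TRIB3, PPP1R15A, ATF3, CEBPG and KLF4 fell. TRIB3, a pseudokinase that ATF4 induces, fell from 449 ± 31.0 to 271 ± 61.9 CPM, a call lost when any 1 control or SAM 1 was dropped. CEBPG, a dimer partner of ATF4, fell from 83.7 to 60.8 CPM. Its call and those of PPP1R15A, ATF3 and KLF4 were lost in the same 4 cases, and that of NUPR1 without control 2 or 3. ATF5, a relative of ATF4, rose from 49.0 ± 1.74 to 83.2 ± 10.5 CPM (adjusted p = 0.00508) and stayed called without each library. Falls in this list numbered 1, 0 and 0 when control 1, 2 or 3 was dropped, and 1, 9 and 8 when SAM 1, 2 or 3 was. In the same order, 1.61%, 1.45%, 0.909%, 1.40%, 20.3% and 15.7% of all tested genes were called in either direction. Of further factors known to act on some of the hormone genes, HIF1A averaged 784 and 643 CPM (adjusted p = 0.179) and EPAS1 185 and 184 CPM (0.977). PPARA, which drives FGF21 in liver, averaged 28.1 and 24.2 CPM (0.344). EGR1, an early response factor, was too scarce to be tested, with 33 counts in all.

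Among all tested genes 5.24% fell and 5.19% rose. Of 22 genes listed as other targets of ATF4, all tested, 13 fell, none rose and 9 did not pass. The list leaves out genes placed among the stress sensors and factors, where ATF5 rose and 6 genes fell, TRIB3 among them. The median log2 fold change was -0.55, and all 22 were below 0, against 50.9% of all tested genes. INHBE, an activin subunit that the liver also secretes as a hormone, fell from 4.82 ± 0.216 to 1.36 ± 0.225 CPM (adjusted p = 0.00139) and stayed called without each library. JDP2, a partner of AP-1 factors, fell with a log2 fold change of -0.93 (lost without control 3), DDIT4, which restrains mTORC1, from 154 to 86.0 CPM (lost without control 2 or 3), and the glycine transporter SLC6A9 from 31.7 to 17.0 CPM (lost without control 2 or 3). MTHFD2, a mitochondrial folate enzyme, fell from 299 ± 4.78 to 213 ± 7.56 CPM, a call lost when any 1 control or SAM 1 was dropped. Its log2 fold change stayed between -0.52 and -0.47 with 1 library left out. SLC38A2, an amino acid transporter, fell from 546 ± 41.6 to 309 ± 66.1 CPM, a call lost without control 1, control 3 or SAM 1. ASNS, asparagine synthetase, averaged 173 and 126 CPM (adjusted p = 0.0969), and the transporter chains SLC7A5 and SLC3A2 had log2 fold changes of -0.09 and -0.08. Falls numbered 4, 3 and 1 when control 1, 2 or 3 was dropped, and 6, 15 and 17 when SAM 1, 2 or 3 was. In the same order, 1.61%, 1.45%, 0.909%, 1.40%, 20.3% and 15.7% of all tested genes were called in either direction. The median of the list stayed between -0.64 and -0.45. That targets of ATF4 were lower was already known when the list was drawn up, so it is not independent support.

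Of 20 tested hypoxia targets, 2 rose, 1 fell and 17 did not pass (median -0.01, with medians of -0.11 to 0.07 when 1 library was left out). Over all tested genes 5.19% rose and 5.24% fell. EGLN3, an oxygen-sensing hydroxylase, rose from 6.19 to 10.5 CPM, PFKFB3, a glycolytic regulator, from 33.5 to 41.5 CPM, and BNIP3L, a mitophagy receptor, fell from 88.4 to 64.4 CPM, but each call was lost when any 1 control or SAM 1 was dropped, and that of PFKFB3 also without SAM 2. Without 1 control or SAM 1, only 0.909% to 1.61% of all tested genes were called. CA9, the usual hypoxia marker, averaged 4.08 ± 1.97 and 3.92 ± 1.37 CPM (adjusted p = 0.830), and VEGFA 181 and 150 CPM (0.0925).

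Of 34 other secreted hormones listed, 21 were tested, 4 fell, 1 rose and 16 did not pass (median 0.04, with medians of -0.09 to 0.03 when 1 library was left out). Over all tested genes 5.24% fell and 5.19% rose. The falls in the list were INHBE and ADM2, both also in the ATF4 list, INHBB and FST. ADM2, a peptide of the calcitonin family, fell from 29.8 ± 2.33 to 13.2 ± 5.06 CPM, a call lost without control 1, 2 or 3. INHBB, an activin subunit, fell from 117 ± 2.73 to 76.4 ± 3.32 CPM (adjusted p = 0.00592), and FST, which binds and blocks activins, from 71.5 ± 3.05 to 41.3 ± 3.92 CPM (0.00258). Both stayed called without each library. VGF, a neuroendocrine precursor, rose from 2.37 ± 0.880 to 4.15 ± 0.462 CPM (adjusted p = 0.0484), and the call was lost when any library but SAM 3 was left out. The adrenomedullin gene ADM (10.2 and 12.4 CPM, 0.171), PTHLH, the parathyroid hormone-related peptide of tumours (97.1 and 99.7 CPM, 0.921), and INHBA, a further activin subunit (475 and 489 CPM, 0.811), did not pass. Of the endocrine FGFs beside FGF21, FGF19 had 20 counts in all and FGF23 none.

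**Figure D4:**
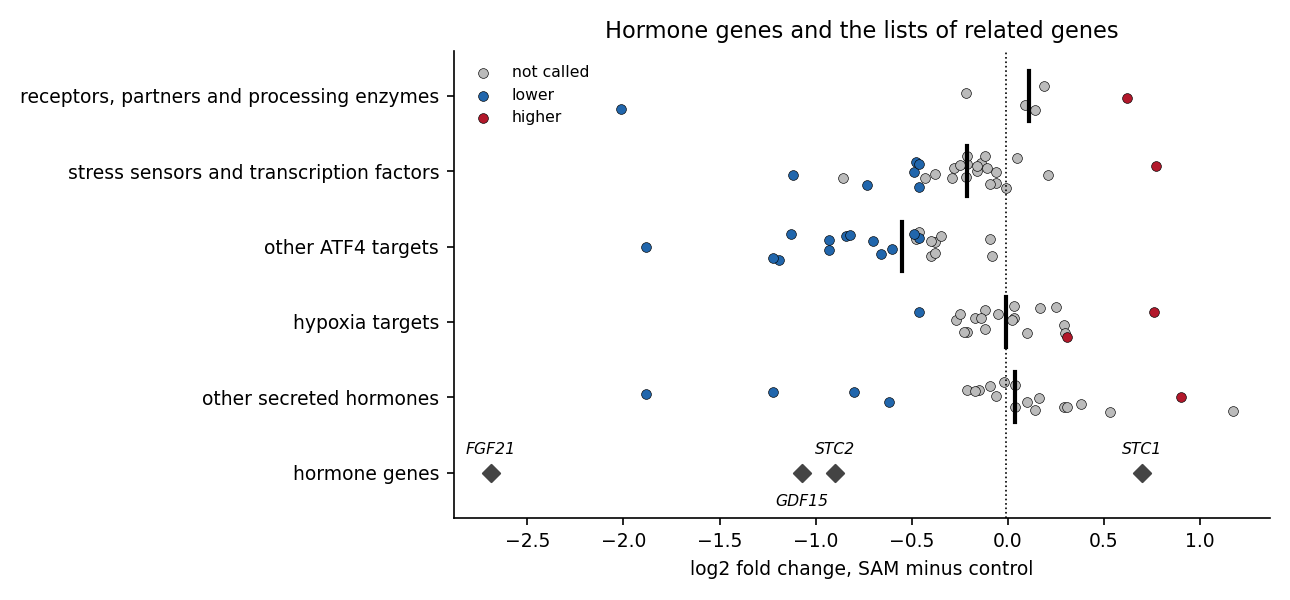
Log2 fold change of SAM minus control (horizontal axis) for tested genes of each list and, in the bottom row, the 4 hormone genes, with called genes in blue (lower) or red (higher), black bars for list medians and a dotted line for the median of all tested genes (-0.01). The ATF4 targets have a median of -0.55, and FGF21, GDF15 and STC2 lie on the same side of 0 while STC1 lies on the other.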

How the data were processed

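The authors deposited raw counts per Ensembl gene and normalised signal values, which are those counts divided by 1 size factor per library (0.562 to 1.75). The deposited tables also give a transcript length. The submitters' notes name STAR 2.4, HTSeq 0.6.1 and DESeq2 1.8, without their roles. The labels were followed for dose and vehicle, where the study's text differs. Whether counting used strand was not stated. Of 51488 identifiers shared with GENCODE 44 on GRCh38, 99.9% overlap that gene.

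Counts were tested with edgeR 4.0.16 (R 4.3.3), glmQLFit and glmQLFTest, after filterByExpr and TMM, two-sided, with Benjamini-Hochberg adjustment over all tested genes. The SE was taken from the fold change and F (size of the log2 value over root F). CPM values use TMM-scaled sizes. On simulated SAM against control counts (15312 genes drawn, 15130 tested) the fit called 32.8% of 67 genes set to a 1.5-fold change. It called 74.6% of 67 at 2-fold and 92.4% of 66 at 4-fold, and 6.99% of calls were false. The simulated libraries were drawn independently, without the traits that set control 1, SAM 2 and SAM 3 apart. These shares therefore need not hold for the real libraries. Libraries of a group differed beyond sampling noise (chi-square per degree of freedom 4.57 to 55.2). Named genes are the 4 hormone genes, up to 6 called genes per list, the listed regulators and the 5 genes nearest in pattern. Further genes, such as GFRAL or CA9, were named after their values were seen. Members and lists were chosen with earlier results of these data known. Alternatives used limma 3.58.1 and DESeq2 1.42.0, and figures matplotlib 3.10.9. Some planned results are not reported here.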

Additional observations from a re-analysis of the deposited data

How the results depend on the processing

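The 4 hormone genes kept their direction under each of 17 alternatives. They were picked on this contrast and their groups did not overlap, so these settings could hardly have reversed a direction. Nothing is read from the kept direction. With 1 library left out the log2 fold change ran from 0.57 to 0.85 for STC1, -0.98 to -0.76 for STC2, -1.24 to -0.83 for GDF15 and -3.48 to -2.10 for FGF21, which moved beyond 1 SD without SAM 1 or SAM 3. DESeq2 gave no adjusted p for FGF21. Depth limits FGF21 most, with 2 to 7 counts per SAM library.

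The genes called over the whole table numbered 1598, and 139 without control 3 to 3233 without SAM 2, 2743 with no filter on low counts, 954 without both control 1 and SAM 2, and 253 at an adjusted p under 0.01. With library totals as the only scaling, 608 were higher and 961 lower, against 795 and 803 with TMM.

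The labels do not say whether libraries with the same number in both groups were paired. Deviations of control and SAM libraries correlated at -0.166, -0.399 and 0.134 for replicates 1, 2 and 3. The best match, 0.45, joined control 1 and SAM 2, which also shared the high CTD-2328D6.1 counts. With so few libraries these values cannot settle whether there was a pairing. With the replicate number as a block, 1028 genes were called, 1 hypoxia target and 0 other secreted hormones were higher, and the hormone genes gave 0.68, -0.92, -1.12 and -2.61.

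With 1 library left out, receptors and partners called higher numbered 0 to 1 and lower 1 to 1, stress sensors and factors 1 to 1 and 0 to 9, ATF4 targets 0 to 0 and 1 to 17, hypoxia targets 0 to 3 and 0 to 3, and other secreted hormones 0 to 3 and 3 to 4. In these settings 0.909% to 20.3% of all tested genes were called. Hypoxia targets called higher numbered 1 with DESeq2, library totals only, limma voom, limma with a trend on normalised values, no filter, robust dispersion, or without both control 1 and SAM 2, where 0 were lower. Other secreted hormones called higher numbered 0 with library totals only or the limma trend and 3 with no filter. At an adjusted p under 0.01, 0 receptors, 0 hypoxia targets and 0 other hormones were higher, and 0 stress factors, 3 ATF4 targets and 0 hypoxia targets were lower. At that threshold 1.65% of all tested genes were called. The cause of these shifts was not tested.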
